A study of Mus musculus with 8 samples.

Results

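The genes described here are the core of TGF-beta, BMP and activin signalling: the ligands, their receptors, the Smad proteins, the secreted proteins that store or block the ligands, the Id target genes, and the nuclear and ubiquitin ligase regulators. They were 49 named genes, taken as every probe set (a group of short array probes read as 1 signal) that the platform annotation gives exactly 1 symbol, that symbol being one of the 49. This found 103 of 45101 probe sets, for 48 of the 18193 genes so named on the array, and none for Gdf6. Testing was limited to the brightest 60% of probe sets, ranked on their mean over the 8 arrays: 27026 probe sets, standing for 13259 genes. These held 80 of the 103 probe sets, for 45 of the 49 genes. Bmp7, Smad9 and Nog had probe sets below this limit only and were not tested.

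The cells were subcutaneous preadipocytes, precursors that can turn into adipocytes. They came from day 2 newborn mice of C57BL/6 background and Dicer lox/lox genotype, in which Cre recombinase can excise part of the gene of Dicer, the enzyme that cuts microRNA precursors. Every sample was infected at 750 MOI, in the presence of polybrene at 4 µg/mL. The 4 control samples were given Ad5CMVeGFP, which carries GFP, and the 4 Dicer knockout samples Ad5CMVCre-eGFP, which carries Cre and GFP, both named for the CMV promoter. RNA was taken 4 days later and hybridised to 1 array per sample. Floxed alleles, virus, GFP and polybrene were thus common to both groups, and since 0 of the 8 samples combine the Cre virus with unfloxed cells, an effect of Cre and one of Dicer loss cannot be told apart. The labels call the samples biological replicates numbered 1 to 4, without saying whether they are separate animals, pools or cultures, so that errors measure only the spread between these samples.

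Ligands of this family are secreted dimers that bring together type I and type II receptor kinases. TGF-beta and activin receptors phosphorylate Smad2 and Smad3, whereas BMP receptors phosphorylate Smad1, Smad5 and Smad9, and both kinds enter the nucleus with Smad4. In cells of the fat lineage TGF-beta and activin A restrain adipocyte differentiation, and BMP4 is known for committing mesenchymal cells to this lineage. The Id genes are classic direct targets of BMP signalling, and their products block basic helix-loop-helix transcription factors.

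On the 8 arrays the median signal was 321.1 to 418.9. Dicer1 itself was read by 2 probe sets with log2 differences, knockout minus control, of -0.15 (SE 0.20) and -0.26 (SE 0.27), limma adjusted p = 0.999 for each, and the sources used here do not place them relative to the excised segment. Arrays with odd replicate numbers stood apart from even-numbered ones in both groups, with an 18S ribosomal RNA 5′ signal of 5906 to 14007 against 30584 to 43030, and the pairs are therefore also given by parity below. Of 11 preadipocyte and fibroblast markers 10 were tested, and their summed signal was 399775 to 473890 in controls and 378577 to 436639 in knockouts. Ly6a had no probe set named here. The summed skeletal muscle markers read 678.7 to 977.9 and 956.2 to 1482, with Ckm and Myod1 tested of 5, and the 4 adipocyte markers with a probe set read 2237 to 4145 and 2041 to 6450, with Fabp4 alone tested of 5. The remaining sums were 2569 to 3579 and 2492 to 3181 for macrophages and leukocytes, and 1326 to 1816 and 1389 to 1701 for endothelium. They were 2542 to 4160 and 3583 to 4261 for pericytes, and 1559 to 2120 and 1891 to 2602 for epithelium. Schwann and neural cell markers summed to 1570 to 2588 and 1465 to 2112. Sums of every marker list, muscle and adipocyte included, overlapped between the groups. The part of these cell types in the results was not tested. Fewer cells of a type and less RNA per cell cannot be told apart in such samples.

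The Id genes lay lower and the activin subunits and follistatin higher in the knockout, but 0 of the 45 tested members passed the threshold of 0.05 in the unpaired limma fit, with an adjusted p of 0.999 for each. By the same rule 0% of the 13259 tested genes and 0.0037% of probe sets, which is 1 probe set, were called. A second fit that blocks on the replicate number, called the paired fit, also called 0 members, against 0.0754% of genes and 0.0481% of probe sets. An unadjusted limma p below the threshold was found for 4 members, or 8.89%, against 3.93% of all genes in the unpaired fit, 3 of them higher (1.99% of all genes) and 1 lower (1.94%). It was found for 14 members, or 31.1%, against 10.3% of all genes in the paired fit. Of these 14, 11 were higher (4.96% of all genes) and 3 lower (5.35% of all genes) in the knockout. The groups did not overlap in 3 members, or 6.67%, against 2.52% of all genes. In these, Inhba, Ltbp4 and Fst, every knockout array lay above every control array (1.3% of all genes), and in 0 members did every knockout array lie below (1.22% of all genes). Each gene was read here by its brightest tested probe set. All 4 same-numbered pairs had the same sign in 16 members, or 35.6% against 18.1% of all genes, of which 9 were higher (8.64% of all genes) and 7 lower (9.44%).

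As a whole the list had no common direction. Of the 45 members 23 had a log2 difference above 0 and 22 below, with a median of 0.0087, beside -0.002 over all tested genes. Without knockout array 4 the median was 0.109. The median size of the difference, sign aside, was 0.21 over the members and 0.12 over all genes. Between odd-numbered and even-numbered arrays, a split that crosses the groups, the members also differed more, at a median of 0.29 against 0.18. The differences ran from -0.61 for Id3 to 0.65 for Fst.

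**Figure D1:**
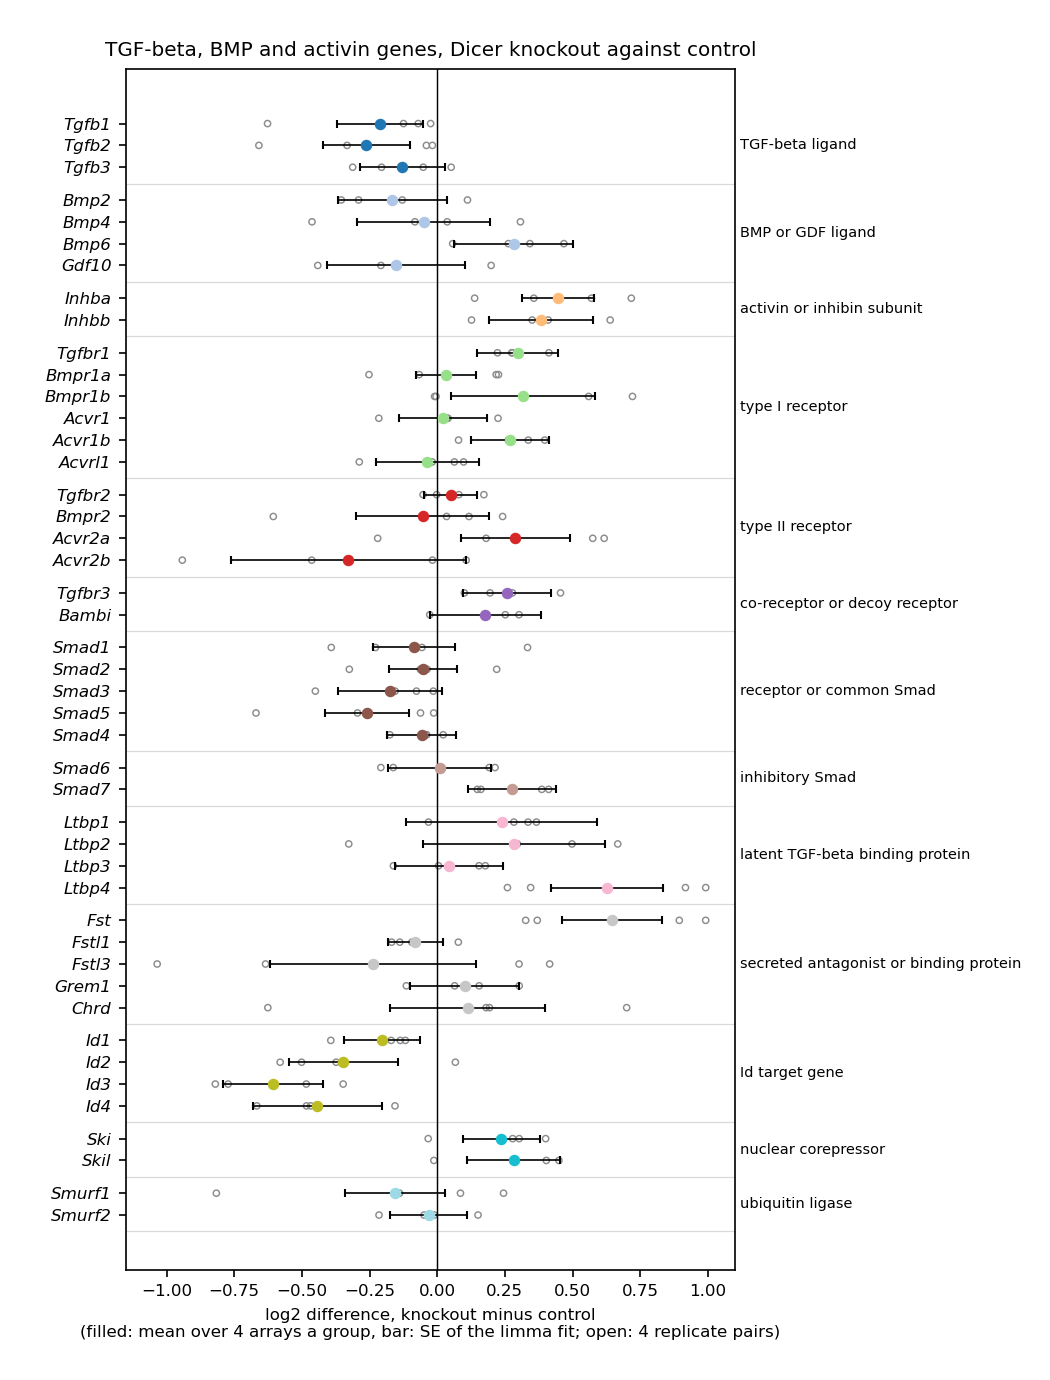
Log2 difference between knockout and control (x axis) for each of the 45 tested members (y axis), grouped by role. Filled points are means over 4 arrays a group with the SE of the limma fit as bars, and open points are the 4 same-numbered pairs; the Id genes lie to the left of 0, and the activin subunits, Ltbp4 and Fst to the right.

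All 4 Id genes had lower means in the knockout, and 0 of 4 passed the adjusted threshold. Id3 gave 11415, 8109, 12706 and 9181 in control replicates 1 to 4, against 8955, 5778, 7407 and 5169 in the same knockout replicates. Knockout array 1 lay above control array 2, so the groups overlapped, yet the knockout array was the lower in 4 of 4 pairs. Its log2 difference was -0.61 (SE 0.18), with pair values of -0.35, -0.48, -0.77 and -0.82. In the paired fit this was the smallest adjusted p of the members, 0.0565 (paired SE 0.09). Without pair 1 the paired fit called Id3, at a log2 difference of -0.69 and a limma adjusted p of 0.0246, and over all alternatives its adjusted p ran from 0.0246 to 0.99998.

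Id4 read 1719, 1385, 1615 and 1032 in control replicates 1 to 4, against 1209, 981, 1442 and 623 in the same knockout replicates, a log2 difference of -0.44 (SE 0.24). It was lower in the knockout in 4 of 4 pairs, while control array 4 lay below 2 knockout arrays. The other tested Id4 probe sets gave -0.31 (SE 0.19) and -0.37 (SE 0.20). For Id2 the signals were 6170.1, 5410.5, 6581 and 4364 in control replicates 1 to 4, against 6466, 4159.5, 4377 and 3062 in the same knockout replicates, and the log2 difference was -0.35 (SE 0.20). Pair 1 went the other way for this gene, at 0.07, and the remaining pairs lay between -0.58 and -0.37. Without knockout array 4 the log2 difference was -0.23 for Id4 and -0.18 for Id2, and without knockout array 1 that of Id2 was -0.53. Id1 showed the smallest difference of the 4, -0.20 (SE 0.14), with 3233, 3106, 4051 and 3522 in control replicates 1 to 4, against 2865, 2819, 3727 and 2664 in the same knockout replicates. It too was lower in 4 of 4 pairs, although knockout array 3 lay above 3 control arrays. In the odd-numbered pairs the log2 differences of Id1, Id2, Id3 and Id4 were -0.14, -0.26, -0.56 and -0.32, and in the even-numbered pairs -0.27, -0.44, -0.65 and -0.57.

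**Figure D2:**
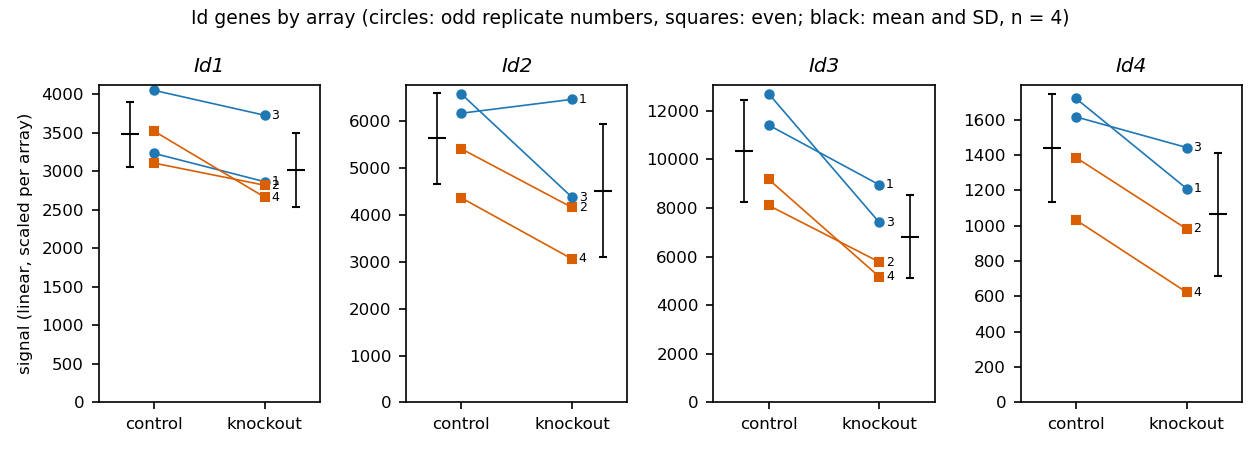
Linear signal (y axis) of the brightest tested probe set of each Id gene on control and knockout arrays (x axis), with lines joining same-numbered replicates, circles for odd and squares for even numbers, and black bars for the mean and SD of 4 arrays. Every line of Id1, Id3 and Id4 goes down from control to knockout, and for Id2 the line of replicate 1 goes up.

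Of the 49 genes 35 matched the RefSeq promoter table (GRCm38.p6) by symbol. Because the Id genes lay in the same direction, the 250 bases before the annotated start of those Id genes that matched are shown, 5′ to 3′ on the strand of the gene, with matches to GGCGCC, a GC-rich sequence that BMP Smads can bind, and to GTCT or its reverse complement AGAC, the core Smad-binding letters, in capitals. Both motifs were searched on both strands, and the first reads the same on either.
Id2, chr12:25096093-25096342, minus strand: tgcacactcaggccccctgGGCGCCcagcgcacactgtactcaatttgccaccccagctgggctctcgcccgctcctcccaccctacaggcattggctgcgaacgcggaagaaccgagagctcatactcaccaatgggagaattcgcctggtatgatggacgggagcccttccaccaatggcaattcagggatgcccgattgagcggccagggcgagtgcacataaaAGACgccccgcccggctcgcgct
Id3, chr4:136143572-136143821, plus strand: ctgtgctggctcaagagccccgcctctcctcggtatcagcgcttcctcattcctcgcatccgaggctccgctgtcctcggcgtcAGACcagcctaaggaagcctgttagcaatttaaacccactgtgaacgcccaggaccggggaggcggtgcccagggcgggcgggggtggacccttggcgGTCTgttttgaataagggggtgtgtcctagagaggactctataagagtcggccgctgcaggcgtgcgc
Id4, chr13:48260866-48261115, plus strand: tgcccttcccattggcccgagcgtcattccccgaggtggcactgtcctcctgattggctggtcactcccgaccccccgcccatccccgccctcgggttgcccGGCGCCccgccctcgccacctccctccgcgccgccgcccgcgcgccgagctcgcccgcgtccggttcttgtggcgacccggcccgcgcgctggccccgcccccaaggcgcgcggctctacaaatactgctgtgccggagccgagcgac
The Id2 and Id4 windows held GGCGCC 1 time each and the Id3 window 0 times, while 9.59% of the 32851 windows of this length in the table hold it. G and C made up 62.8%, 62.8% and 75.6% of the Id2, Id3 and Id4 windows. The share over all windows was not matched for base composition, so it cannot show an excess of this GC-rich motif. The 4-base motif was found 1 time before Id2, 2 times before Id3 and 0 times before Id4, and in 82.9% of all windows, with a median of 2 per window. These matches are descriptions of the letters and not of binding.

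Both activin subunits were higher in the knockout in 4 of 4 pairs, and neither passed the adjusted threshold. Inhba, whose dimer is activin A, read 2319, 1946, 2052 and 2245 in control replicates 1 to 4, against 2990, 2924, 3419.7 and 2478 in the same knockout replicates. All knockout values exceeded all control values, and the log2 difference was 0.45 (SE 0.13), with pair values of 0.36, 0.57, 0.72 and 0.14. For Inhbb, the activin B subunit, the signals were 7872, 10382, 8174 and 7195 in control replicates 1 to 4, against 10058, 16207, 10884 and 7861 in the same knockout replicates. Knockout array 2 stood highest, and knockout arrays 1 and 4 lay within the range of the controls, so the groups overlapped. The log2 difference was 0.38 (SE 0.19), with 0.38 in both odd-numbered and even-numbered pairs. It was 0.19 without knockout array 2 and 0.54 without knockout array 4. A dimmer Inhbb probe set gave 0.16 (SE 0.15).

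Follistatin (Fst), the secreted protein that binds and neutralises activins, had the largest log2 difference of the 45 members in the unpaired fit. It read 2259, 2406, 2597 and 1458 in control replicates 1 to 4, against 4261, 3129.5, 3276 and 2972 in the same knockout replicates. All knockout arrays lay above all control arrays, and the log2 difference was 0.65 (SE 0.18), 0.61 in odd-numbered and 0.68 in even-numbered pairs. The other Fst probe set read 1547, 1189.6, 1235 and 1442 on control arrays and 1697, 1811, 2173 and 1498 on knockout arrays, a log2 difference of 0.38 (SE 0.15). Its knockout array 4 lay below control array 1. In the paired fit the adjusted p was 0.226 for Inhba, 0.173 for Inhbb and 0.124 for Fst, and over all alternatives the lowest was 0.218, 0.173 and 0.124 and the highest 0.99998 for each.

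The windows before both activin subunit genes, which lay higher together, are shown with the same 2 motifs in capitals.
Inhba, chr13:16011601-16011850, plus strand: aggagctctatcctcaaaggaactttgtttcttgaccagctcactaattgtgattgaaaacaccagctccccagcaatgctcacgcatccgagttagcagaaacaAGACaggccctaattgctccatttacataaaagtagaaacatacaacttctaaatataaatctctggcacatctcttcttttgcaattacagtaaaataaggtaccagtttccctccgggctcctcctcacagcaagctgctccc
Inhbb, chr1:119422249-119422498, minus strand: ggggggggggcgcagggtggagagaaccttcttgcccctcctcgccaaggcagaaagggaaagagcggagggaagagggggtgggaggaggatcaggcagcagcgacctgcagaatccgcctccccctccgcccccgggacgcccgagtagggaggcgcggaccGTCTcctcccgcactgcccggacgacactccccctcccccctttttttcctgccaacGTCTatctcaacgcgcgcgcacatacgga
The GTCT or AGAC letters were found 1 time before Inhba and 2 times before Inhbb, and GGCGCC 0 times in either. The 2 windows differed in base composition, with 43.2% and 68% G and C.

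**Figure D3:**
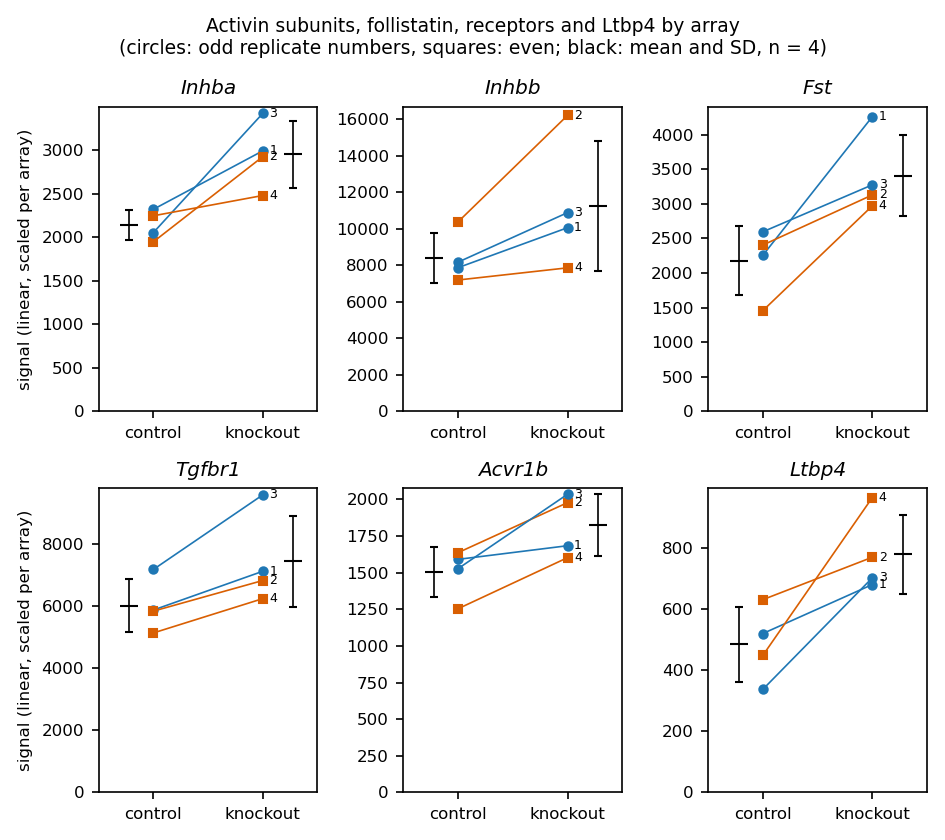
Linear signal (y axis, from 0) of Inhba, Inhbb, Fst, Tgfbr1, Acvr1b and Ltbp4 on control and knockout arrays (x axis), with lines joining same-numbered replicates, circles for odd and squares for even numbers, and black bars for the mean and SD of 4 arrays. Every line goes up from control to knockout, and the groups do not overlap for Inhba, Fst and Ltbp4.

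The 3 TGF-beta ligand genes had log2 differences below 0 and 0 of them passed. Tgfb2, the one with the smallest p, read 2295, 2009, 2762 and 1853 in control replicates 1 to 4, against 2266, 1579.5, 1722 and 1800.2 in the same knockout replicates. Control array 3 was highest, the groups overlapped, and the log2 difference was -0.26 (SE 0.16), or -0.16 without control array 3. Its 4 tested probe sets all lay below 0, from -0.29 to -0.21. Tgfb1, the main isoform of immune and mesenchymal cells, and Tgfb3 had log2 differences of -0.21 (SE 0.16) and -0.13 (SE 0.16). Tgfb1 was lower in 4 of 4 pairs, at -0.63 in pair 4 and -0.12 to -0.02 in the others.

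Of the BMP and GDF ligands 4 of 6 were tested, 1 above and 3 below 0, and 0 passed. Bmp6, best known as a regulator of iron balance and bone, read 424, 327, 357 and 268 in control replicates 1 to 4, against 444, 434, 522 and 336 in the same knockout replicates, a log2 difference of 0.28 (SE 0.22) that was above 0 in 4 of 4 pairs, with overlapping groups. Bmp2 gave -0.17 (SE 0.20) on the same scale, Bmp4 gave -0.05 (SE 0.25) and Gdf10, a relative of Bmp3, gave -0.15 (SE 0.26), each smaller than its SE. Bmp7, known for promoting brown fat, read at most 157.9 on any array in its brightest probe set.

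Among the type I receptors, the kinases that phosphorylate Smads, 5 of 6 lay above 0 and 0 passed. Tgfbr1, the TGF-beta type I receptor, read 5869.9, 5835, 7176 and 5133 in control replicates 1 to 4, against 7118, 6820.3, 9576 and 6237 in the same knockout replicates. Replicate 3 was the highest array of each group, the groups overlapped, and the 4 pairs lay close together at 0.27, 0.22, 0.41 and 0.28, around a log2 difference of 0.30 (SE 0.15), which was 0.17 without knockout array 3. Acvr1b, the activin type I receptor, read 1591, 1637, 1528 and 1254 in control replicates 1 to 4, against 1684, 1978, 2035 and 1602 in the same knockout replicates. Here too the groups overlapped and all 4 pairs were above 0, at 0.08 to 0.40, with a log2 difference of 0.27 (SE 0.14). The BMP type I receptors Bmpr1a and Bmpr1b had log2 differences of 0.03 (SE 0.11) and 0.32 (SE 0.27), Acvr1 one of 0.02 (SE 0.16) and Acvrl1, best known from endothelium, one of -0.04 (SE 0.19). Dimmer tested probe sets of Bmpr1a gave 0.29 (SE 0.20), 0.19 (SE 0.15), 0.22 (SE 0.18) and 0.04 (SE 0.26). Those of Acvr1 gave 0.14 (SE 0.16) and 0.12 (SE 0.23). A dimmer Acvrl1 probe set lay above 0 in 4 of 4 pairs, at 0.20 (SE 0.20). In the paired fit Tgfbr1 and Acvr1b were the type I receptors with an unadjusted limma p below the threshold, at adjusted p of 0.235 and 0.520.

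The type II receptors, which bind ligand and activate the type I chain, lay 2 above and 2 below 0. Acvr2a, an activin receptor, read 2635, 2309, 2674 and 1939.9 in control replicates 1 to 4, against 2252, 3579, 4018 and 2208 in the same knockout replicates. Knockout arrays 2 and 3 were above all controls, whereas knockout arrays 1 and 4 lay among them, and the log2 difference was 0.29 (SE 0.20), or 0.19 without knockout array 2 and 0.14 without knockout array 3. The TGF-beta type II receptor Tgfbr2 had a control mean of 36759 ± 2808 and a knockout mean of 38082 ± 3586 (SD, n = 4 each), a log2 difference of 0.05 (SE 0.10). Bmpr2 and Acvr2b gave -0.05 (SE 0.25) and -0.33 (SE 0.43), and the control arrays of Acvr2b spanned 114.9 to 601.3.

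Tgfbr3, or betaglycan, a co-receptor that presents TGF-beta and inhibin, read 15800.3, 13329, 20203 and 12327 in control replicates 1 to 4, against 16941, 16174, 23139.5 and 16928 in the same knockout replicates. It was above 0 in 4 of 4 pairs with overlapping groups, and its log2 difference was 0.26 (SE 0.16). Replicate 3 was the highest of both groups, and the difference was 0.14 without its knockout array, 0.40 without its control array and 0.16 without control array 4. Bambi, a decoy receptor without a kinase, had a log2 difference of 0.18 (SE 0.21), with 3 of 4 pairs above 0.

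By their brightest probe sets the Smads that carry the signal lay below 0 in 5 of 5 tested genes, and 0 passed. Smad5, a BMP Smad, read 2149, 1952, 1845 and 2268 in control replicates 1 to 4, against 2056, 1933, 1491 and 1399 in the same knockout replicates, a log2 difference of -0.26 (SE 0.15) that was -0.17 without knockout array 4. Knockout arrays 3 and 4 lay below all controls and arrays 1 and 2 among them, and the other tested Smad5 probe sets lay above 0, at 0.14 and 0.04. Smad1 had a log2 difference of -0.09 (SE 0.15), Smad2 one of -0.05 (SE 0.13), Smad3 one of -0.17 (SE 0.19) and the common Smad4 one of -0.06 (SE 0.13). Of these, Smad3 alone was lower in 4 of 4 pairs. Their dimmer tested probe sets did not share 1 direction. They gave -0.05 and -0.06 for Smad1, 0.03 for Smad2, 0.11 for Smad3, and 0.01 and -0.21 for Smad4.

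The inhibitory Smads are induced by the pathway and switch its receptors off. Smad7 read 2167, 1920, 2402 and 1686 in control replicates 1 to 4, against 2854, 2578, 2695 and 1876 in the same knockout replicates. All 4 pairs were above 0 while the groups overlapped, and the log2 difference was 0.28 (SE 0.16), 0.27 in odd-numbered and 0.28 in even-numbered pairs. A dimmer tested Smad7 probe set gave 0.23 (SE 0.49), with scattered pair values of -1.74, 1.18, 2.02 and -0.55. Smad6, which acts mainly on BMP receptors, had a log2 difference of 0.01 (SE 0.19), with 2 of 4 pairs above 0.

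The latent TGF-beta binding proteins, which anchor inactive TGF-beta in the matrix, had 4 of 4 log2 differences above 0, and 0 passed. Ltbp4, a partner of elastic fibres, read 519.9, 631, 337 and 449 in control replicates 1 to 4, against 680.1, 769, 702 and 965 in the same knockout replicates. The groups did not overlap, and the log2 difference was 0.63 (SE 0.21), with 0.63 in both odd-numbered and even-numbered pairs. Ltbp1 read 5349.6, 2403, 3095 and 1666 in control replicates 1 to 4, against 6526, 3119, 3024 and 2122 in the same knockout replicates, so that replicate 1 was far above the other replicates in each group. The log2 difference was 0.24 (SE 0.35), and it was -0.07 without knockout array 1 and -0.01 without control array 4. Ltbp2 and Ltbp3 had log2 differences of 0.28 (SE 0.34) and 0.04 (SE 0.20).

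Of the other secreted antagonists, Grem1, a BMP antagonist of stromal cells, had a log2 difference of 0.10 (SE 0.20) and Chrd, or chordin, one of 0.11 (SE 0.29). Fstl3, a follistatin relative that binds activin, gave -0.24 (SE 0.38), with pairs from -1.03 to 0.42. Fstl1, a secreted glycoprotein of the same family, had a control mean of 103937 ± 11953 and a knockout mean of 97912 ± 6219.8 (SD, n = 4 each), a log2 difference of -0.08 (SE 0.10). Each of these 4 differences was smaller than its SE.

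Ski and Skil, corepressors that bind Smads in the nucleus, both lay above 0 and neither passed. Ski read 4436, 4819, 5585 and 3706 in control replicates 1 to 4, against 5879, 5861, 5455 and 4588 in the same knockout replicates, a log2 difference of 0.24 (SE 0.14), and a second Ski probe set gave -0.08 (SE 0.12). For Skil the signals were 3355, 5091, 4933 and 4948 in control replicates 1 to 4, against 4459, 6979, 6039 and 4905 in the same knockout replicates, and the log2 difference was 0.28 (SE 0.17). Each had 3 of 4 pairs above 0 and overlapping groups by these probe sets, except for the second one of Ski. A dimmer tested Skil probe set gave -0.02 (SE 0.27). The difference of Ski was 0.14 without control array 4, and that of Skil 0.14 without control array 1 and 0.17 without knockout array 2. Smurf1 and Smurf2, ubiquitin ligases that degrade Smads and receptors, had log2 differences of -0.16 (SE 0.19) and -0.03 (SE 0.14). Dimmer tested Smurf2 probe sets gave -0.23 (SE 0.13) and 0.03 (SE 0.16). The first of these was lower in 4 of 4 pairs, with all knockout arrays below all controls. By their brightest probe sets 1.22% of all genes were separated in this way. Smurf1 read 1502, 1871, 2871 and 1576 in control replicates 1 to 4, against 1794, 1692, 1599 and 1677 in the same knockout replicates, and its sign rested on control array 3, since the log2 difference was 0.04 without that array.

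The members also varied among themselves between replicates. Over the 4 control arrays the coefficient of variation ran from 7.64% for Tgfbr2 to 71.9% for Acvr2b, with a median of 20.2%, beside 17.7% over all tested genes. In 5 members, or 11.1%, odd-numbered and even-numbered arrays did not overlap, close to the 11.3% of all genes. In all 5 the odd-numbered arrays of both groups lay above all even-numbered ones (5.5% of all genes), and in 0 members was it the reverse (5.79%). These 5 were the receptors Acvr1 and Bmpr2, the matrix proteins Ltbp2 and Ltbp3, and Grem1. Ltbp2 had the largest such difference, 0.998 on the log2 scale, with signals of 7699, 4309, 6122 and 6115 on odd-numbered and 2554, 2396, 4098 and 2958 on even-numbered arrays. Its difference between knockout and control, 0.28 (SE 0.34), was smaller. Id2, Id3 and Id4 were higher on odd-numbered arrays by 0.48, 0.52 and 0.58 on the log2 scale, which is more than the size of the group difference for Id2 and Id4 and less for Id3. The parity split crosses the groups evenly.

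**Figure D4:**
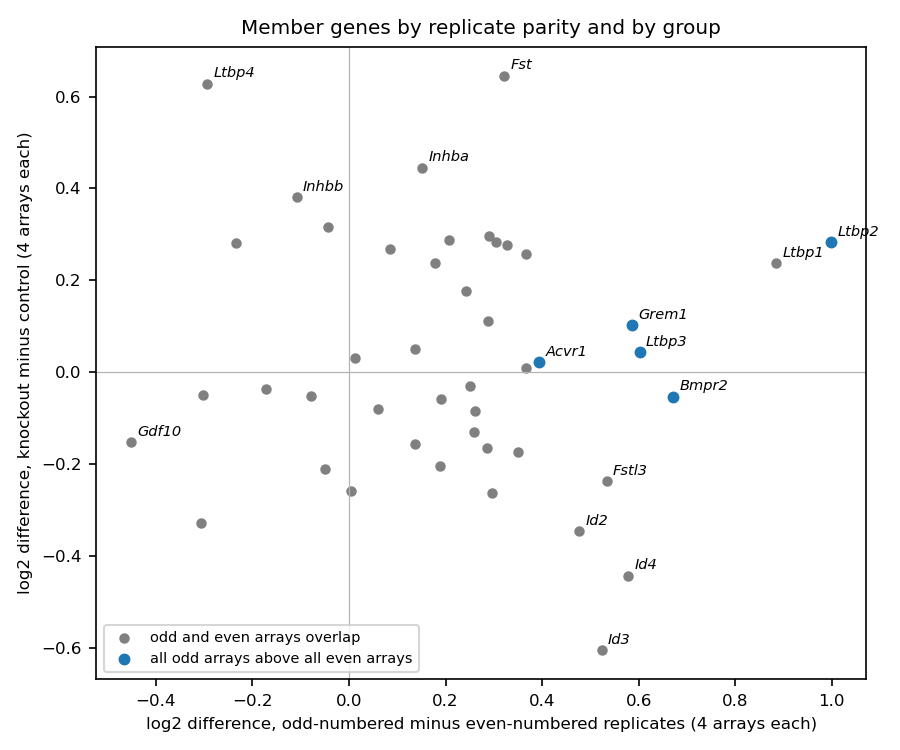
Each point is one of the 45 tested members, with the log2 difference of odd-numbered minus even-numbered replicates on the x axis and of knockout minus control on the y axis, 4 arrays on each side. The 5 blue members have all odd-numbered arrays above all even-numbered ones; they lie to the right, while Fst, Ltbp4 and Inhba lie at the top and Id3 at the bottom.

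Further genes of the pathway came from 3 lists that hold no member. Of 62 other ligands, receptors and regulators 43 were tested, with 23 above and 20 below 0, a median log2 difference of 0.02, and 0 past the adjusted threshold of limma in either fit. An unadjusted p below the threshold was found for 1 of the 43 in the unpaired fit and for 4 in the paired fit, beside 3.93% and 10.3% of all tested genes. Nedd4l, a ubiquitin ligase for activated Smads, read 1865 ± 90.8 as control mean and 1411 ± 369.7 as knockout mean (SD, n = 4 each), a log2 difference of -0.42 (SE 0.18), and was lower in 4 of 4 pairs. Trim33, a Smad4 regulator, gave -0.22 (SE 0.12), with all knockout arrays below all controls (1.22% of all genes). In Inhbe all knockout arrays lay above all controls (1.3% of all genes), at 0.34 (SE 0.24). Zfyve9, the Smad anchor SARA, and Itgb8, an integrin subunit that activates latent TGF-beta, gave 0.32 (SE 0.20) and 0.66 (SE 0.43). Without a single array these differences ranged from -0.55 to -0.24 for Nedd4l, -0.27 to -0.14 for Trim33, 0.23 to 0.49 for Zfyve9 and 0.33 to 0.99 for Itgb8.

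Genes known to be induced by TGF-beta split evenly. Of 26 listed 24 were tested, 12 above and 12 below 0, with a median log2 difference of -0.00022. None passed the adjusted threshold of limma in either fit, and an unadjusted p below it was found for 2 in the unpaired and 8 in the paired fit, beside 3.93% and 10.3% of all tested genes. Of these 8, 6 were higher (4.96% of all genes) and 2 lower (5.35%). Acta2, the smooth muscle actin of myofibroblasts, read 18714 ± 3637 as control mean and 29876 ± 4149 as knockout mean (SD, n = 4 each). All its knockout arrays lay above all controls (1.3% of all genes), and the log2 difference of Acta2 was 0.68 (SE 0.14). Its paired adjusted p was 0.0561, and 0.00504 without pair 1, with a range of 0.00504 to 0.99998 over all alternatives. Thbs1, an activator of latent TGF-beta, and Pmepa1, a feedback inhibitor, gave 0.48 (SE 0.19) and 0.35 (SE 0.20), both above 0 in 4 of 4 pairs. That of Pmepa1 was 0.19 without control array 1 and 0.53 without knockout array 1. Tgfbi, a secreted matrix protein, lay the other way at -0.46 (SE 0.27), and without pair 1 the paired fit called it lower (log2 difference -0.66, limma adjusted p = 0.0201, from 0.0201 to 0.99998 over all alternatives). In the unpaired fit the difference of Tgfbi was -0.20 without knockout array 4, -0.30 without control array 3 and -0.69 without knockout array 1.

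Of 11 genes listed here as BMP response genes, the Id genes aside, 7 were tested, 5 above and 2 below 0. Their median log2 difference was 0.17, and 0 passed the adjusted threshold of limma in either fit. An unadjusted p below it was found for 1 in the unpaired and 2 in the paired fit, beside 3.93% and 10.3% of all tested genes. Msx1, a homeobox gene, read 195.9 ± 125.4 as control mean and 390.7 ± 96.0 as knockout mean (SD, n = 4 each), a log2 difference of 0.91 (SE 0.37) that was above 0 in 4 of 4 pairs. Pair 4 gave 2.30 and the others 0.24 to 0.85. The difference was 0.57 without control array 4, which read 48.2, 0.44 in the paired fit without pair 4, and 0.51 with a pseudocount 4 times as large. Its relative Msx2 and the preadipocyte zinc finger gene Zfp423 gave 0.30 (SE 0.26) and 0.64 (SE 0.38). Without knockout array 1 the difference of Msx2 was 0.47, and without control array 1 it was 0.19. That of Zfp423 was 0.09 in odd-numbered and 1.19 in even-numbered pairs, 2.02 in pair 2, 0.37 without control array 2, and 0.18 in the paired fit without pair 2. Hes1, also a Notch target, gave -0.24 (SE 0.36), and 0.11 without control array 3 and -0.58 without knockout array 3. The Id genes lay below 0, as did 2 of these 7 genes, while 5 of the 7 lay above 0. BMP signalling itself was not measured.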

How the data were processed

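The 8 arrays, 4 control and 4 Dicer knockout, were grouped and numbered from the sample titles. Per the submitters' processing notes, Affymetrix GCOS 1.3 and MAS5 were used. The deposited values are linear intensity per probe set, and every array had a 2% trimmed mean of 1500, which shows a scaling per array before deposit. The sources used here give no other normalization, and the number of arrays limits the precision.

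Values were taken as log2(signal + 73.1), 73.1 being the 20th percentile of all values, which understates differences of dim probe sets. The 64 spike and control probe sets were dropped. Gene names came from the platform annotation, and a RefSeq gene table changed 0 of the members' symbols. Of all probe sets 34945 had 1 symbol and 932 several. A gene is its brightest tested probe set.

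Knockout was compared with control by limma 3.58.1 (R 4.3.3; lmFit, eBayes with trend, two-sided), and p-values were adjusted by Benjamini-Hochberg over the 27026 probe sets tested. Python 3.11.15 with matplotlib 3.10.9 drew the figures. The fit was also run on simulated data with planted changes larger than the difference of any member, so recovery of differences as small as those of the members was not tested.

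Deviations from the group means correlated at 0.189 to 0.372 between same-numbered arrays and at -0.347 to 0.149 between others. The labels' numbers were therefore taken to pair the samples, although what a number stands for is not stated in the labels. Among the others, values were positive between arrays of the same parity and negative between opposite ones. Deviations within a group cancel out, so positive values for same-numbered arrays come with lower ones for the others. How much of the pairing is parity was not tested.

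Members are named by role, with all array values for those with an unadjusted p below 0.05 in either fit, groups that do not overlap, or the smallest p of their role, and for Id1. Of each further list the 4 genes with the smallest p are named, and Inhbe beside Trim33. Id1 and Inhbe were not among the 31 genes followed under the alternatives. The members and lists were chosen with earlier results of these data known. Alternatives were other pseudocounts, filters, normalizations, weights, the block, left-out arrays and, chosen after seeing the data, odd-numbered or even-numbered replicates alone.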

Additional observations from a re-analysis of the deposited data

Results flagged for a closer look

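In 2 of 90 groups of 4 arrays examined, 1 for each tested member and condition, a single array stood far from the other 3 by Dixon's criterion, and chance alone gives about 1 in 20. For Tgfbr3 the knockout array 3 read 23139.5, while the other knockout arrays read 16173.5 to 16941. For Skil the control array 1 read 3354.9, while the other controls read 4933 to 5091.1.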

How the results depend on the processing

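The number of probe sets called was 1 in the unpaired fit and 0 with no filter on dim probe sets, with median centring, without the mean-variance trend, and in odd-numbered or even-numbered replicates alone; it was 0 to 2 when single arrays were left out. The replicate block gave 13 (10 higher, 3 lower), and 0 to 80 when 1 pair was left out. Members called were 0 under every alternative except the replicate block without pair 1, which called 1, Id3; there the TGF-beta response list had 2 calls, Acta2 and Tgfbi. Otherwise the block changed no call of a member or a named gene. The member median ran from -0.0434 to 0.109 over left-out arrays. Of 739 values of the 31 named genes under 24 alternatives, 734 kept their direction. The other 5 were Smurf1 without control 3 (0.0386; -0.262 to 0.0386 over left-out arrays) and in the block without pair 3 (0.0638), Hes1 without control 3 (0.109; -0.575 to 0.109), and Ltbp1 without control 4 (-0.0131) or knockout 1 (-0.0725; -0.0725 to 0.534); the cause was not tested. Fold sizes of dim members depend on the pseudocount, and detection calls were not used here.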

Other observations

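Probe sets of the same gene differed for some members. A dimmer Tgfb1 probe set had a log2 difference of 0.28, against -0.21 for the brightest. The dimmer Id2 probe set gave -0.89, and its knockout array 4 read 77.1 where the other 3 knockout arrays read 1664 to 1876 and the controls 1281 to 2109. The members below the limit on signal read low on the arrays: Smad9 from 29.3 to 232.7 and Nog from 25.5 to 285.8.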
